A study of Mus musculus with 15 samples.

Results

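Muscle makes ATP quickly by breaking glucose and its own glycogen down to pyruvate and lactate. The genes described here are the 31 that encode the glycolytic enzymes, the enzymes that build and break glycogen, 2 subunits of pyruvate dehydrogenase and a few of their regulators in mouse quadriceps. They were chosen as the rows of the deposited table whose Ensembl identifier belongs to 1 of 31 listed symbols, and all 31 were found among the 50686 genes of the table. All 31 also passed the filter for testing (a mean normalized count of at least 10), as did 13499 genes in all.

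RNA came from the quadriceps of C57BL/6 offspring aged 10 months, with 3 libraries in each of 5 groups. In the MHE group the mother had eaten a 60% high-fat diet for 6 weeks before mating and had an open running wheel in pregnancy. In the MHS group the mother had the same diet and her wheel was locked. In the PHE group the father had eaten that diet and the dam, lean and 14 weeks old at mating, had an open wheel, and in the PHS group her wheel was locked. In the NCS group, the control of both arms, the parents ate normal chow and the dam was sedentary. Parents were 8 weeks old when their diet began, and the offspring of all 5 groups lived on chow without wheels from the day after birth. The design asks what the diet of either parent leaves in offspring muscle, and whether exercise of the dam alters it. Every comparison with NCS uses the same 3 control libraries, and MHE with MHS and PHE with PHS use the libraries of the comparisons with NCS again. The sources used here do not say whether littermates were used or animals pooled, so p-values measure only the spread between these libraries.

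As background, hexokinase traps glucose in the fibre as glucose 6-phosphate, which is either split to pyruvate by the glycolytic enzymes or stored as glycogen by glycogen synthase and the branching enzyme. On contraction, phosphorylase kinase switches on glycogen phosphorylase, which returns glucose units to glycolysis. Fast fibres rely on this route and make lactate, while slow fibres burn more of the pyruvate in mitochondria, where pyruvate dehydrogenase turns it into acetyl-CoA. Several steps have an isozyme that prevails in muscle (Pfkm, Pgam2, Eno3, Pygm, Gys1) beside other forms.

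Levels were compared as RPKM, reads scaled by the kilobases of a gene's merged exons and by the library's total. Merged exons join all annotated transcripts of a gene and can be longer than the transcript present in muscle. They held 4133 bases in Gapdh and 5001 in Pkm, against 1739 in Eno3 and 840 in Pgam2. The order of genes therefore depends partly on the annotation. On this scale the module was dominated by muscle isozymes. The aldolase gene Aldoa was highest, at 7116 ± 718 RPKM (SD over 15 libraries). Eno3, the muscle enolase, followed at 4042 ± 640.3 and Pygm, the muscle glycogen phosphorylase, at 4037 ± 510.3, and these neighbours in the order did not differ beyond their spread. Next came Pfkm, the muscle phosphofructokinase, at 1916 ± 194, and Pgam2, the muscle phosphoglycerate mutase, at 1579.8 ± 359. Gapdh, Ldha, Pkm and Tpi1, which encode glyceraldehyde 3-phosphate dehydrogenase, the muscle-type lactate dehydrogenase subunit, pyruvate kinase and triose phosphate isomerase, lay between 673 and 781 RPKM, within each other's spread. The ubiquitous isozymes stood near the bottom, Eno1 at 7.78 ± 1.64, Hk1 at 1.13 ± 0.122 and Pgam1 at 0.711 ± 0.143. Of the other 19 members, 18 had means between 6.92 (Gbe1, the glycogen branching enzyme) and 150.5 (Phka1, the regulatory alpha subunit of phosphorylase kinase in muscle), and Gpd1, the cytosolic glycerol 3-phosphate dehydrogenase, had 218. Together the members took 5.66% to 7.78% of the reads of a library.

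**Figure D1:**
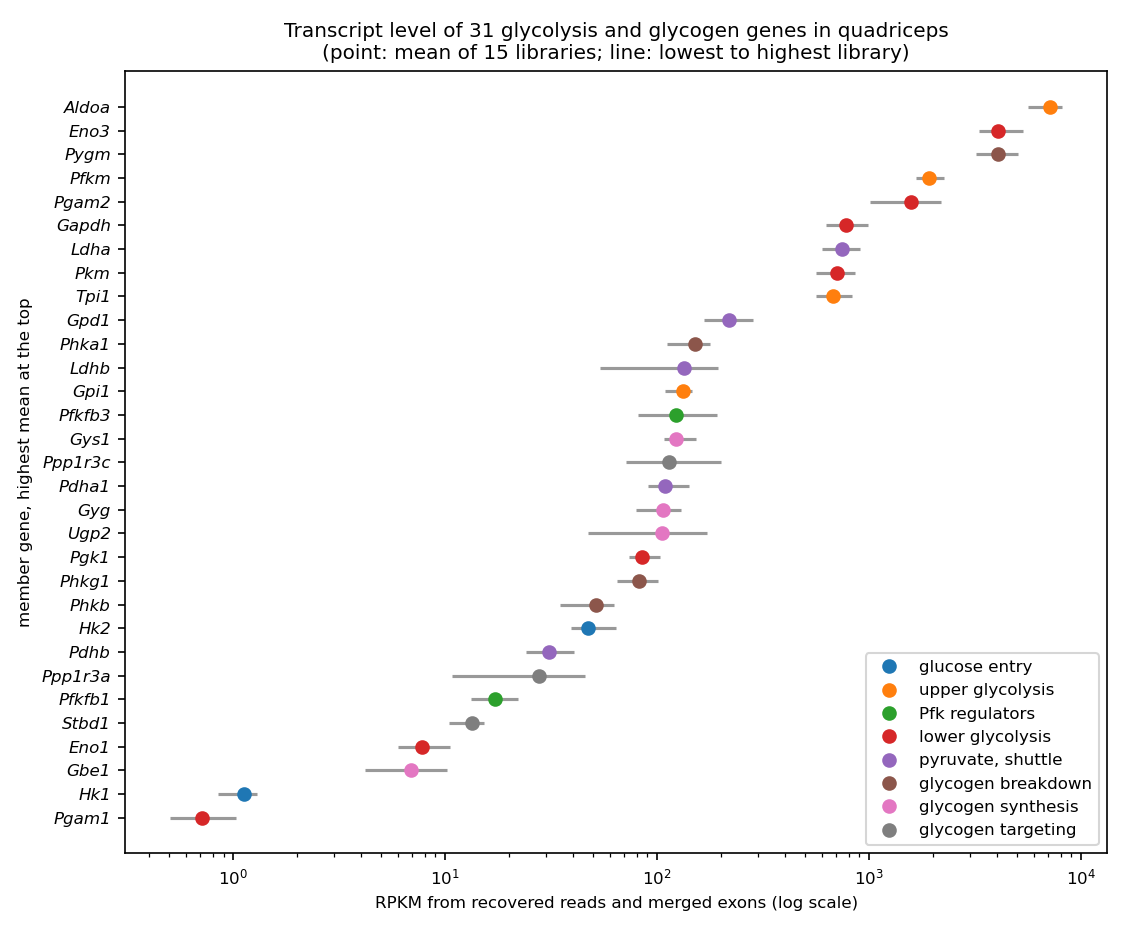
Transcript level of each member in RPKM (log axis), ordered by mean and coloured by pathway step; the point is the mean of 15 libraries and the line runs from the lowest to the highest library. Aldoa, Eno3 and Pygm lead with means of 7116, 4042 and 4037 RPKM, and Pgam1 is last with 0.711.

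Some members cannot be counted cleanly. Of the 100-base windows of their transcripts, 51.6% in Pgk1 (phosphoglycerate kinase), 33.9% in Pgam1, 20.9% in Gapdh and 20.4% in Eno1 occur letter for letter in another annotated gene, so reads from these genes and their copies could be lost or exchanged and their values are uncertain. The share was 0% for 15 members, Aldoa, Eno3, Pgam2, Pygm, Hk2 and Pfkfb3 among them. Phkg1, Pdha1 and Gys1 share 8.29%, 9.09% and 3.84% of windows, and their exons overlap a gene on the opposite strand (Sumf2, Map3k15 and Ruvbl2). Gpi1 shares 7.18% with Gm26762, on the opposite strand, and Gm1840, Gpd1 6.22% with Gm16537, on the opposite strand, and Ldhb 6.44% with Gm5514. Pkm and Pfkm share 12.3% and 7.43%, and their exons overlap those of Gm49759 and Gm26513 on the same strand, which strand cannot tell apart, so their values are uncertain too. The kit marks strand, but the sources used here do not say whether the counting used it.

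Libraries held 18457663 to 26981745 counted reads. Summed over 12 hepatocyte markers, transcripts of liver reached 3236 and 376 CPM (reads scaled by the library's total) in MHS replicates 2 and 3, 191 in PHS replicate 1 and 127 in NCS replicate 2, and 0.532 to 25.6 in the other 11 libraries. Genes with at least 1 read numbered 17581 in MHS replicate 3 and 17699 in NCS replicate 2, against 19062 to 20771 in the others. Myh7, the slow myosin heavy chain, had 3842 normalized counts in PHE replicate 1 and 8832 in NCS replicate 1, against 14133 to 41403 in the others. Fast fibre markers summed to 164612 to 235023 CPM, the levels of a mostly fast muscle in every library.

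No member differed between any groups at a Benjamini-Hochberg adjusted p below 0.05 over all 13499 genes tested by limma, a linear model of log2(normalized count + 1). The same fit called 0% of all genes in each of the 8 tests (6 pairs of groups, the difference between both exercise effects, and any difference among the 5 groups). On recovered reads, edgeR called 0 genes in every test, and DESeq2 called 0 to 65 genes per comparison and 186 for any difference, none of them a member. All differences below are therefore values and not changes. At an unadjusted p below 0.05, the 5-group test picked 0 of 31 members, against 6.71% of all genes, with Pgam2 and Gys1 having the smallest p.

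**Figure D2:**
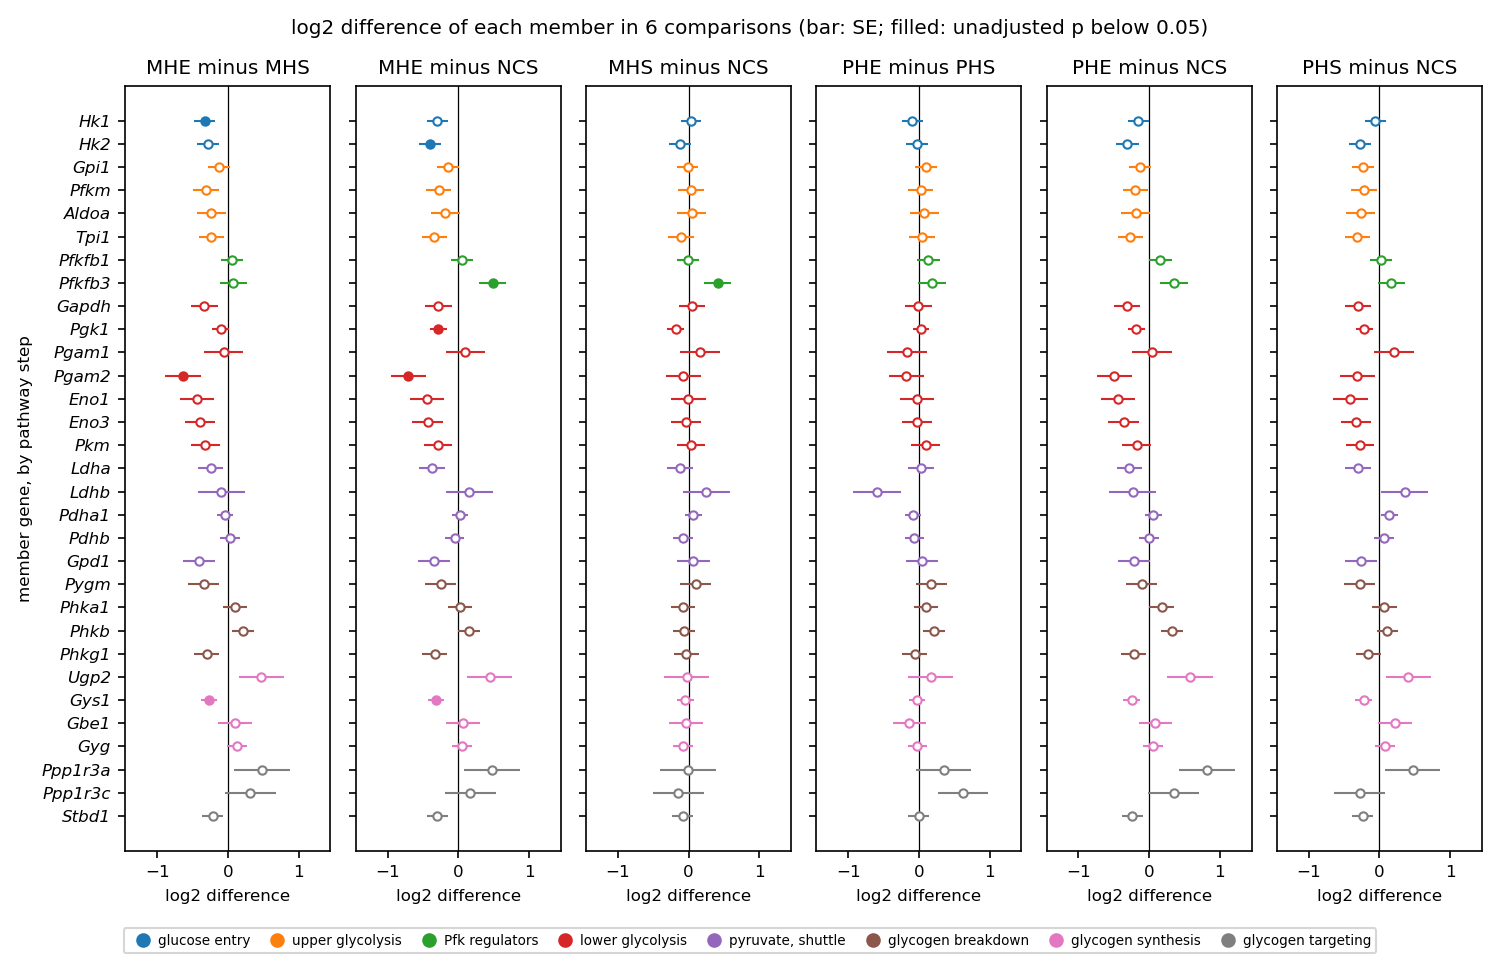
Difference of each member in log2(normalized count + 1), with its SE, in 6 comparisons, by pathway step from glucose entry (top) to glycogen targeting (bottom); filled points have an unadjusted p below 0.05. Points of upper and lower glycolysis lie mostly left of 0 in the comparisons with NCS except MHS, and Ugp2 and Ppp1r3a lie right of 0 there.

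The offspring of high-fat-fed sedentary mothers differed little from controls in this pathway. Of 31 members, 11 had a higher and 20 a lower mean in MHS than in NCS, and the median log2 difference was -0.03, against 0.014 over all genes. Leaving out 1 library turned its sign, to 0.082 without NCS replicate 1, 0.018 without MHS replicate 1 and 0.016 without NCS replicate 2, and the lowest value was -0.10 without NCS replicate 3. Hepatocyte markers had higher means in MHS for 12 of 12 genes, and slow fibre markers for 8 of 8. The member with the smallest p was Pfkfb3 (ENSMUSG00000026773.19, chr2:11471433-11554077, minus strand, GRCm38), the enzyme that makes fructose 2,6-bisphosphate, an activator of phosphofructokinase. It had 23951, 20554 and 22709.5 normalized counts in MHS, against 17291, 14456 and 18945 in NCS. The lowest MHS library lay above the highest NCS library, and Pfkfb3 was the only member whose groups did not overlap, against 8.02% of all genes. Its log2 difference was 0.41 ± 0.19 (SE, limma adjusted p = 0.9995). It was the 1 of 31 members (3.23%) with an unadjusted p below 0.05, against 4.04% of all genes. Neither share of members was above that of all genes. Next by p was Pgk1 (ENSMUSG00000062070.12, chrX:106187100-106203699, plus strand, GRCm38), with 4054, 4629 and 4102 in MHS, against 5773, 4295 and 4546 in NCS. Only NCS replicate 1 lay above every MHS library, and the log2 difference was -0.18 ± 0.12 (adjusted p = 0.9995, limma), or -0.055 without that library and -0.34 without the libraries with liver transcripts.

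Exercise of high-fat-fed mothers went with lower means of most glycolytic enzymes in the offspring. Between MHE and MHS, 10 members had a higher and 21 a lower mean, with a median log2 difference of -0.22, against 0.0024 over all genes. The median was -0.13 without MHE replicate 1 and -0.13 without the libraries with liver transcripts, where 1 MHS library is left. Every glycolytic enzyme gene from Hk1 to Pkm had a lower mean (2 of 2 in glucose entry, 4 of 4 in upper glycolysis, 7 of 7 in lower glycolysis), as did Ldha, Gpd1, Pygm and Gys1. Many of these genes varied together over the 15 libraries (r = 0.97 for Eno3 and Tpi1, but 0.06 for Pgam1 and Aldoa). They are therefore not separate observations. An unadjusted p below 0.05 was found for 9.68% of members, against 9.54% of all genes. The groups did not overlap for 9 members, against 17.2% of all genes: Pfkm, Tpi1, Gapdh, Eno3, Pkm, Gpd1, Pygm and Gys1 were lower in every MHE library, and Phkb, the beta subunit of phosphorylase kinase, was higher. Other values moved between the same groups. Hepatocyte markers had lower means in MHE for 12 of 12 genes, all with an unadjusted p below 0.05, and liver transcripts were high in 2 of 3 MHS libraries. Slow fibre markers had lower means for 8 of 8 genes (median log2 difference -0.38), with summed levels of 2070.0 to 4916 CPM in MHE and 3108 to 5077 CPM in MHS. Macrophage markers had lower means for 7 of 7 genes (median -0.66, 1 with an unadjusted p below 0.05), with 11.9 to 35.3 CPM in MHE and 14.9 to 42.8 CPM in MHS. Each MHE library held fewer counted reads (18457663 to 20139878) than any MHS library (22927662 to 25781465), and MHE replicate 1 had the lowest Aldoa of the maternal arm. Their part in these differences was not tested.

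Among the members without overlap, the muscle enolase Eno3 had 117960, 148091 and 143867 normalized counts in MHE, against 166291, 159408 and 217324 in MHS. Pfkm had 118162, 140873 and 131049 in MHE, against 150493, 149445 and 185780 in MHS. Gapdh had 58699, 69091 and 72824 in MHE, against 81985, 73430.3 and 98032 in MHS. In all 3 genes MHE replicate 1 was the lowest and MHS replicate 3 the highest of the 6 libraries, and the gap between the groups was small beside the range within MHS. Pkm had 59699, 79215 and 76080 in MHE, against 82057, 79726 and 106647 in MHS. Tpi1 had 34582, 38993 and 40044 in MHE, against 41823, 40279.8 and 52056 in MHS. Gpd1, which links glycolysis to glycerol and to the NADH shuttle of mitochondria, had 10056, 14053 and 14001 in MHE, against 15773, 15322 and 19378 in MHS. The same libraries were lowest and highest in these genes, so the 6 genes share their extremes. Without MHS replicate 3 the log2 differences of Eno3, Gapdh, Pkm and Tpi1 were -0.26, -0.22, -0.19 and -0.12, against -0.40, -0.33, -0.32 and -0.23 with it. Without MHE replicate 1 those of Pkm and Gpd1 were -0.19 and -0.25. The largest of the 6 log2 differences over all libraries was that of Gpd1, -0.41 ± 0.23 (SE), and the smallest that of Tpi1, -0.23 ± 0.18. Phkb had 8561, 8828 and 8840.4 in MHE, against 7429, 8092 and 7158 in MHS, a log2 difference of 0.21 ± 0.15.

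Pgam2 (ENSMUSG00000020475.3, chr11:5801640-5803733, minus strand, GRCm38) had a lower mean in MHE than in MHS and in NCS. It had 18669.9, 30462 and 19270.4 normalized counts in MHE, 28803, 31251 and 45535 in MHS and 42680.3, 41070.1 and 27226 in NCS. MHE replicates 1 and 3 lay below every MHS and NCS library, and MHE replicate 2 lay among them. The log2 difference was -0.63 ± 0.25 from MHS (adjusted p = 0.516, limma) and -0.71 ± 0.25 from NCS (adjusted p = 0.566). Leaving out the 4 libraries with liver transcripts gave -0.37 from MHS, where 1 MHS library is left, and -0.62 from NCS. Its promoter is shown because this gene had the smallest p of all members in both comparisons. The 250 bases before the RefSeq start site (chr11:5803797-5804046, minus strand, GRCm38.p6) hold a CAGCTG E-box 125 bases and a MEF2 consensus 80 bases before the start, both in capitals:
Pgam2: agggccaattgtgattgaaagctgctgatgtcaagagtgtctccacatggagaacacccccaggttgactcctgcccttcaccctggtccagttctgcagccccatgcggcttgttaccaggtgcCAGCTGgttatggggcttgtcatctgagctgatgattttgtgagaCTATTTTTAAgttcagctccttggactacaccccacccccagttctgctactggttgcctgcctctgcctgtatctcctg

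Gys1 (ENSMUSG00000003865.16, chr7:45434844-45456619, plus strand, GRCm38), the muscle glycogen synthase, had 10984, 13072 and 11734 normalized counts in MHE, 14606, 13730.4 and 14719.7 in MHS and 15251, 17186 and 12376 in NCS. All MHE libraries lay below all MHS libraries, and NCS replicate 3 lay among the MHE values. The log2 difference was -0.27 ± 0.12 from MHS (adjusted p = 0.516, limma) and -0.32 ± 0.12 from NCS (adjusted p = 0.566). Without NCS replicate 2 the difference from NCS was -0.21. The third member past an unadjusted p of 0.05 between MHE and MHS was Hk1 (ENSMUSG00000037012.18, chr10:62268855-62379908, minus strand, GRCm38), the hexokinase of most tissues. It had 209, 162 and 194 in MHE, against 205, 243 and 260.4 in MHS, and MHE replicate 1 lay above MHS replicate 1. Its log2 difference was -0.33 ± 0.15 (adjusted p = 0.516, limma), and -0.13 without the libraries with liver transcripts. An unadjusted p below 0.05 was thus found for 3 of 31 members (9.68%), against 9.54% of all genes, about the same share.

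Set against controls, MHE offspring gave the most members with a small p. An unadjusted p below 0.05 was found for 5 of 31 members (16.1%), against 8.76% of all genes, and 12 members had a higher and 19 a lower mean (median log2 difference -0.25, against 0.017 over all genes). The median was -0.12 without MHE replicate 1 and -0.16 without NCS replicate 1. Slow fibre markers had higher means in MHE for 8 of 8 genes. Beside Pgam2 and Gys1 the members with a small p were Hk2, Pfkfb3 and Pgk1. Hk2 (ENSMUSG00000000628.10, chr6:82725025-82774454, minus strand, GRCm38), the insulin-regulated hexokinase of muscle, had 4800.0, 6555 and 5446 normalized counts in MHE, against 8008, 8916 and 5528 in NCS. NCS replicates 1 and 2 lay above every MHE library and NCS replicate 3 among them. The log2 difference was -0.40 ± 0.16 (adjusted p = 0.566, limma), and -0.26 without NCS replicate 2 or -0.61 without NCS replicate 3.

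Pfkfb3 was higher in mean in MHE as it was in MHS. It had 23347, 17054 and 32744 in MHE, a log2 difference of 0.49 ± 0.19 from the NCS values above (adjusted p = 0.566, limma). MHE replicate 2 lay inside the NCS range, and MHE replicate 3 was the highest of all 15 libraries. Without MHE replicate 3 the difference was 0.25. Pgk1 had 3651, 4163 and 4095 in MHE, every value below every NCS library, and was the only member whose MHE and NCS values did not overlap, against 10.3% of all genes. Its log2 difference was -0.29 ± 0.12 (adjusted p = 0.566, limma), or -0.16 without NCS replicate 1, and its transcript shares windows with copies as given above.

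**Figure D3:**
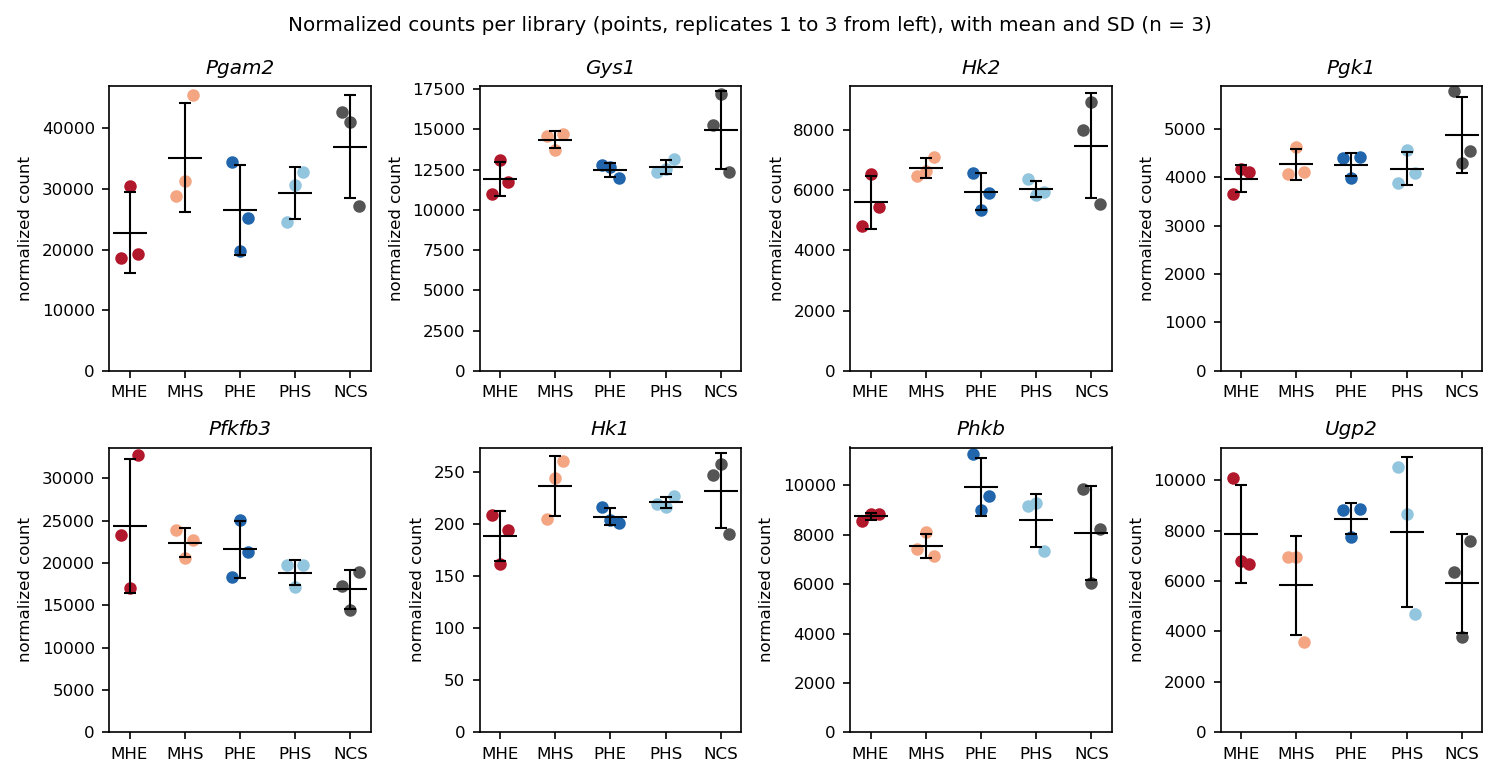
Normalized count of 8 members in each library (points, replicates 1 to 3 from left), with mean and SD of each group of 3; each axis starts at 0. Pgam2 is low in MHE replicates 1 and 3, Pfkfb3 is lowest in NCS replicate 2, and PHE libraries of Ugp2 all lie above the NCS libraries.

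In the paternal arm, no member reached an unadjusted p below 0.05 in any of the 3 comparisons. The share over all genes was 2.87% between PHS and NCS, 3.76% between PHE and PHS and 13.7% between PHE and NCS. Between PHS and NCS, 12 members had a higher and 19 a lower mean (median log2 difference -0.22, against 0.006 over all genes). That median moved with single libraries, being -0.074 without NCS replicate 1, -0.084 without PHS replicate 1 and -0.14 without NCS replicate 2. It was -0.071 without the libraries with liver transcripts. With the leading element of the code in a library's title as covariate it was -0.0085. No PHS library shares that element with an NCS library, so this fit joins the groups only through PHE libraries. Of these, PHE replicate 2 alone shares it with PHS libraries. Erythrocyte markers had lower means in PHS for 5 of 5 genes, all with an unadjusted p below 0.05 (median log2 difference -1.09), with summed levels of 33.1 to 65.1 CPM in PHS and 53.5 to 128 CPM in NCS. Slow fibre markers had higher means for 8 of 8 genes and adipocyte markers lower means for 6 of 7, and the part of these values was not tested. Gys1 and Pgk1 had the smallest p. Gys1 had 12344, 12516 and 13159.8 normalized counts in PHS, a log2 difference of -0.22 ± 0.12 from NCS (adjusted p = 0.92, limma), or -0.12 without NCS replicate 2 and -0.35 without NCS replicate 3. Pgk1 had 3888, 4557 and 4086 in PHS, a log2 difference of -0.21 ± 0.12 (adjusted p = 0.92), or -0.084 without NCS replicate 1. PHS and NCS values overlapped for both genes. The only member without overlap, against 5.7% of all genes, was Stbd1, which tethers glycogen to membranes, with 601, 694 and 619 in PHS, against 815, 749 and 696 in NCS. Its log2 difference was -0.24 ± 0.15 (SE), or -0.0043 in the indirect fit with the title code.

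Between PHE and PHS, means were about evenly split, 16 higher and 15 lower, with a median log2 difference of 0.02, against 0.01 over all genes. Ldhb, the heart-type lactate dehydrogenase subunit of oxidative fibres, had 2035, 5189.6 and 4221 normalized counts in PHE, against 6034, 5702 and 4446 in PHS. PHE replicate 1 lay below all other libraries of the study and the rest overlapped. The log2 difference was -0.59 ± 0.33 (adjusted p = 0.9911, limma), and -0.19 without PHE replicate 1. Ppp1r3c, which brings protein phosphatase 1 to glycogen and so favours synthesis, had 13229, 8023 and 5473 in PHE, against 4545, 6412 and 5413 in PHS. The same library was the highest of the study, and the log2 difference was 0.63 ± 0.36 (adjusted p = 0.9911, limma), or 0.29 without it. Only Hk1 did not overlap, against 10.6% of all genes, with 216, 204 and 200.4 in PHE, against 219, 216 and 226 in PHS, where the nearest libraries differed by less than 1 count. PHE replicate 1 is also the library with the least Myh7, and slow fibre markers were lower in mean in PHE than in PHS for 8 of 8 genes (median log2 difference -1.14, none with an unadjusted p below 0.05). With log2 Myh7 as a covariate the log2 differences of Ldhb and Ppp1r3c were -0.014 and 0.12. Both genes correlated with Myh7 over these same libraries and the other groups (r = 0.95 and -0.81). Smaller differences with this covariate were therefore to be foreseen, and the part of slow fibres was not tested. Erythrocyte markers had higher means in PHE for 5 of 5 genes, all with an unadjusted p below 0.05 (median 1.09), with 65.1 to 135 CPM in PHE and 33.1 to 65.1 CPM in PHS. Macrophage markers had lower means for 7 of 7 genes, and the part of these lists was not tested.

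Between PHE and NCS, 12 members had a higher and 19 a lower mean (median log2 difference -0.18, against -0.00069 over all genes). The median was -0.055 without NCS replicate 1, -0.10 without NCS replicate 2, -0.28 without NCS replicate 3, -0.12 without PHE replicate 2 and -0.054 with the title code. Slow fibre markers had lower means in PHE for 8 of 8 genes and macrophage markers for 7 of 7, and their part was not tested. Phkb (ENSMUSG00000036879.15, chr8:85840959-86061376, plus strand, GRCm38) had 11271, 9020.0 and 9564 normalized counts in PHE, against 9849, 6058 and 8249 in NCS, with PHE replicate 1 the highest and NCS replicate 2 the lowest of the 15 libraries. Its log2 difference was 0.33 ± 0.15 (adjusted p = 0.366, limma), and 0.14 without NCS replicate 2. Gys1 had 12760.5, 12665 and 11956 in PHE, a log2 difference of -0.25 ± 0.12 (adjusted p = 0.366, limma), or -0.14 without NCS replicate 2 and -0.38 without NCS replicate 3. Only Ugp2 did not overlap, against 20.4% of all genes. This gene, whose enzyme makes the UDP-glucose that glycogen is built from, had 8815, 7755 and 8856 in PHE, against 6371, 3769.6 and 7597 in NCS. Its log2 difference was 0.58 ± 0.32 (SE), and 0.28 without NCS replicate 2. Gys1 thus had a lower mean than NCS in MHE, PHS and PHE, and slightly so in MHS (log2 difference -0.045). All these comparisons share the NCS libraries, of which replicate 2 was the highest of the study and replicate 3 lay among the other groups.

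Whether exercise of the dam moved the module differently in the maternal and the paternal arm was tested as the difference between both exercise effects, (MHE - MHS) - (PHE - PHS). No member had an unadjusted p below 0.05, against 1.8% of all genes, so a different effect was not shown for any of them. The difference was above 0 for 8 members and below 0 for 23, with a median of -0.24 log2 units, against -0.0018 over all genes. That median was -0.11 without MHE replicate 1, -0.15 without PHS replicate 1 and -0.11 without the libraries with liver transcripts. The smallest p belonged to Pygm and Gys1. Pygm (ENSMUSG00000032648.14, chr19:6384399-6398459, plus strand, GRCm38) had 233818, 267098 and 292942 normalized counts in MHE, against 305065, 306980 and 399730 in MHS, and 346934, 266168 and 266030 in PHE, against 204959, 256128 and 324275 in PHS. Every MHE library lay below every MHS library, and PHE and PHS overlapped. The difference was -0.52 ± 0.31 log2 units (adjusted p = 0.9995, limma), and -0.22 without the 4 libraries with liver transcripts. For Gys1 it was -0.25 ± 0.17 (adjusted p = 0.9995).

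By pathway step, means in MHE, PHS and PHE lay below NCS for most glycolytic genes and on either side of it for glycogen genes. No difference between steps was tested. All 4 upper glycolysis genes (Gpi1, Pfkm, Aldoa, Tpi1) had lower means than NCS in MHE, PHS and PHE, with median log2 differences of -0.23, -0.25 and -0.19, and 2 of 4 in MHS, with a median of 0.011. In lower glycolysis 6 of 7 genes, all but Pgam1, had lower means than NCS in MHE, PHS and PHE. Both regulators of phosphofructokinase, Pfkfb1 and Pfkfb3, had higher means than NCS in the same 3 groups. In glycogen synthesis 3 of 4 genes had higher means there, Gys1 being the exception. In glycogen breakdown 2 of 4 genes, Pygm and Phkg1, had lower means there, and Phka1 and Phkb higher ones. Of the glycogen-targeting genes, Stbd1 had a lower mean than NCS in all 3 groups. In MHS, lower means than NCS were found for 4 of 4 synthesis, 3 of 4 breakdown and 3 of 3 targeting genes. The same held there for 4 of 7 lower glycolysis genes and 1 of 2 regulators of phosphofructokinase. That regulator was Pfkfb1, with a log2 difference of only -0.0048, while Pfkfb3 was higher in MHS by 0.41. Ppp1r3a, the muscle glycogen-targeting subunit of protein phosphatase 1, had a mean of 4480.5 ± 1212 normalized counts in MHE, 3337 ± 1327 in MHS, 5615 ± 1032 in PHE, 4655 ± 1911 in PHS and 3397 ± 1447 in NCS (SD, n = 3 each), and the groups overlapped. The pyruvate dehydrogenase subunit genes Pdha1 and Pdhb had log2 differences between -0.08 and 0.14 in all 6 comparisons. These counts rest on 3 shared NCS libraries, of which replicates 1 and 2 held 2 of the 4 highest Aldoa values.

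For 10 further members the values of the groups overlapped in every comparison. Gpi1, which turns glucose 6-phosphate into fructose 6-phosphate, ran from 14064 through 19332 to 23145 normalized counts over the 15 libraries, given as lowest, median and highest. Eno1 ran from 642 through 892 to 1409 and Ldha from 41708 through 54349 to 74486. In all 3 the lowest library was PHS replicate 1 or MHE replicate 1. Phka1 ran from 16285 through 21074 to 26952 and Phkg1, the catalytic gamma subunit of phosphorylase kinase in muscle, from 8591 through 12239 to 16294. Both were lowest in NCS replicate 2 or MHE replicate 1. The branching enzyme gene Gbe1 ran from 553 through 848 to 1082 and Gyg, the glycogenin that primes a glycogen particle, from 4565 through 5629 to 6481. The lowest Gbe1 was that of MHS replicate 3 and the lowest Gyg that of NCS replicate 2, the libraries with the fewest detected genes. Pfkfb1, which like Pfkfb3 makes and breaks fructose 2,6-bisphosphate, ran from 1272 through 1518 to 1963. Pdha1 ran from 8013 through 8863 to 10546 and Pdhb from 2279.9 through 2719 to 3134, both with their highest value in a PHS library.

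Beyond the members, 64 other genes of the same pathways were listed, of which 57 could be tested, and none passed over all genes in any comparison. Gsk3b, the kinase that inhibits glycogen synthase, had the smallest p of them in 3 comparisons. It averaged 3146 ± 866 normalized counts in MHE, 2282 ± 239.9 in MHS, 3428 ± 784 in PHE, 2275 ± 209.5 in PHS and 1957 ± 218 in NCS (SD, n = 3 each). Its log2 difference from NCS was 0.79 ± 0.19 in PHE (adjusted p = 0.284, limma) and 0.65 ± 0.19 in MHE (adjusted p = 0.566), and it was 0.57 ± 0.19 between PHE and PHS (adjusted p = 0.9911). Between MHE and MHS the smallest p was that of Ldhd, the D-lactate dehydrogenase, with a log2 difference of -0.45 ± 0.15 (adjusted p = 0.516). Between PHS and NCS it was that of Ppp1r3f, another glycogen-targeting subunit, with 0.95 ± 0.36 (adjusted p = 0.92) at about 19.2 normalized counts in PHS. Between MHS and NCS it was that of Gckr, the glucokinase regulator of liver, with 3.93 ± 1.39 (adjusted p = 0.9995), a gene that averaged 76.9 counts in MHS, where liver transcripts were high, against 0.635 in NCS. Over the 57 genes, 29 had a higher mean in MHS than in NCS, 23 in MHE than in MHS, 22 in MHE than in NCS, 30 in PHE than in PHS, 27 in PHE than in NCS and 23 in PHS than in NCS.

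Across animals, 2 members followed Myh7, the marker of slow fibres. The correlation with Myh7 over the 15 libraries was computed for every tested gene, on log2 values and with 100000 permutations of the libraries. It passed an adjusted p of 0.05 for 50 genes, 0.37% of all genes tested, and for 2 of 31 members, Ldhb and Ppp1r3c. Ldhb rose with Myh7, with Pearson's r = 0.95 (permutation p = 1e-05, the smallest these permutations can give, adjusted p = 0.0075) and Spearman's rho = 0.89 (permutation p = 2e-05, adjusted p = 0.0491). Ppp1r3c fell with Myh7, with r = -0.81 (permutation p = 0.00013, adjusted p = 0.0408) and rho = -0.70 (permutation p = 0.00512, adjusted p = 0.393), so its rank correlation did not pass over all genes. Of the 50 genes that passed, 49 were positive, and Ppp1r3c was the only negative one.

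PHE replicate 1 and NCS replicate 1 were the libraries farthest from the median of Myh7. Without them r was 0.78 for Ldhb and -0.72 for Ppp1r3c, in the same direction. Over all libraries 2 members passed, but without the 4 libraries with liver transcripts 1 did, against 0.244% of all genes, and without the 2 libraries with the fewest detected genes 1 did, against 0.37%. With values centred on their group means neither passed, and 0% of all genes did, with permutations within groups, whose smallest p is 0.000129. There r was 0.96 and -0.78 (Ldhb first), with an adjusted p of 0.118 and 0.444 (permutation). Ldhb had 2035, 5189.6 and 4221 normalized counts in PHE replicates 1 to 3 and 2365, 5406 and 5690.0 in NCS, and the first of each was low. Ppp1r3c had 4429, 8134 and 11242 in MHE and 9465, 7312 and 4085 in NCS, and was high in MHE replicate 3 and NCS replicate 1, where Myh7 was lowest within its group. Ldha, the partner subunit of Ldhb, gave r = -0.45 (permutation p = 0.0925, adjusted p = 0.927) and rho = -0.37 (permutation p = 0.175). In bulk tissue, fewer slow fibres and less RNA per slow fibre cannot be told apart.

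The promoters of Ldhb (ENSMUSG00000030246.11, chr6:142490249-142507957, minus strand, GRCm38) and Ppp1r3c (ENSMUSG00000067279.2, chr19:36731731-36736653, minus strand, GRCm38) are shown because these genes moved in opposite directions along Myh7. Each line is the 250 bases before the RefSeq start site, chr6:142507958-142508207, minus strand, GRCm38.p6 and chr19:36736605-36736854, minus strand, GRCm38.p6. In Ppp1r3c the capitals mark, in order, a hypoxia response core (ACGTG, read on the other strand), a CAGCTG E-box and a CACGTG E-box, which contains the core on both strands. The Ldhb window held none of the motifs searched:
Ldhb: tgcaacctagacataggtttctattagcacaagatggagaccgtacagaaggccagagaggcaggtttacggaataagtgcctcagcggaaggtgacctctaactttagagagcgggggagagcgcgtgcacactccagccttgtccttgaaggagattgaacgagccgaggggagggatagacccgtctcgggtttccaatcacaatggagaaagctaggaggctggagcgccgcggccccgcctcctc
Ppp1r3c: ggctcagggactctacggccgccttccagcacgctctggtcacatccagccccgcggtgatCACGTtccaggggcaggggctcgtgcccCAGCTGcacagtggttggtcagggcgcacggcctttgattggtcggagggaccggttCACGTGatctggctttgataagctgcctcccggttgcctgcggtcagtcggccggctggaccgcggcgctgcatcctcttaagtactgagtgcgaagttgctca

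**Figure D4:**
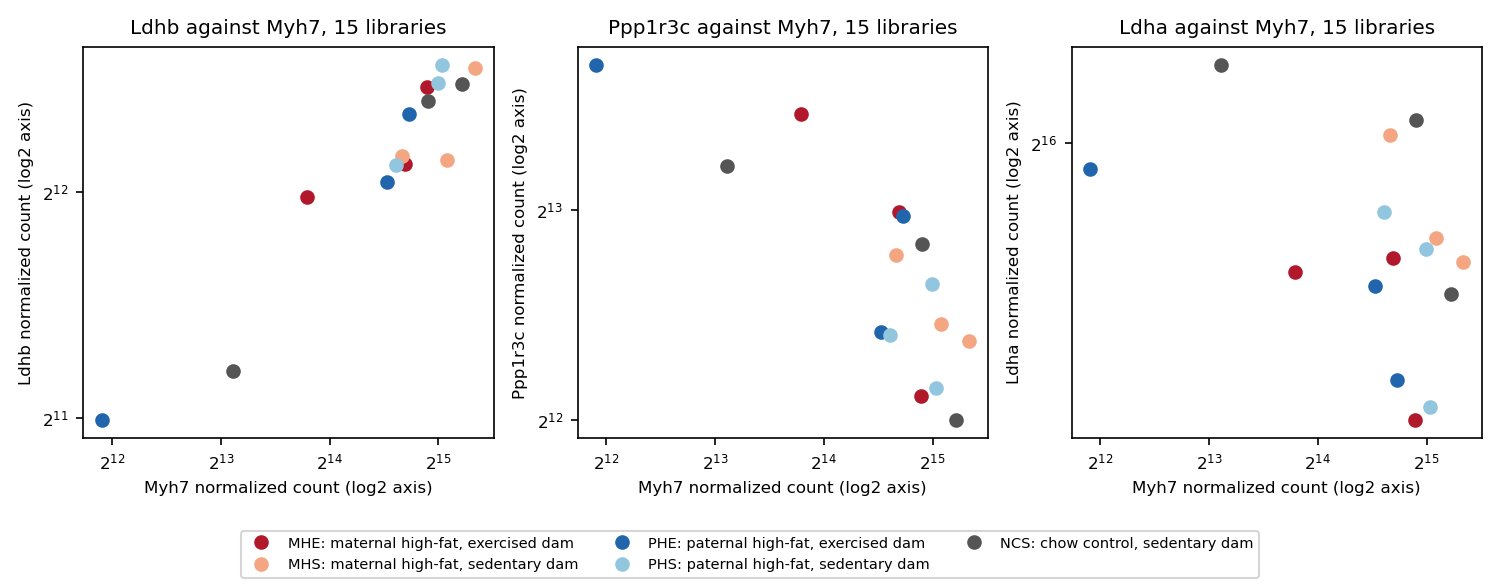
Normalized counts of Ldhb, Ppp1r3c and Ldha against those of Myh7 in 15 libraries (log2 axes), coloured by group. Ldhb climbs with Myh7 (r = 0.95) and Ppp1r3c goes down (r = -0.81), with PHE replicate 1 and NCS replicate 1 at the low end of Myh7.

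The members also varied together across animals. With Aldoa as anchor, the most abundant member, chosen after values were seen, the correlation over 15 libraries passed an adjusted p of 0.05 for 18 of the 30 other members, against 27.6% of all genes, so many genes outside the module followed the same axis. The 14 positive members were Gpi1, Pfkm, Tpi1, Gapdh, Pgam2, Eno1, Eno3, Pkm, Ldha, Gpd1, Pygm, Phkg1, Gys1 and Stbd1, with r from 0.69 (Gys1) to 0.95 (Pkm). The 4 negative members were Pdhb, Ugp2, Gbe1 and Ppp1r3a, with r from -0.79 (Ugp2) to -0.68 (Pdhb). Pkm had rho = 0.97 and r = 0.92 without MHE replicate 1 and PHS replicate 1, the libraries farthest from the median of Aldoa (permutation p = 1e-05 for r and for rho, the smallest these permutations can give). Ugp2 had rho = -0.82 (permutation p = 0.00057 for r and 0.00038 for rho) and r = -0.74 without them. The rank correlation of Ppp1r3a did not pass over all genes, with rho = -0.60 (permutation p = 0.0199, adjusted p = 0.0652). Without the 4 libraries with liver transcripts, 9 members passed, against 3.03% of all genes. Without the 2 libraries with the fewest detected genes 12 did, against 8.01%, after centring on group means 13 did, against 9.87%, and with a pseudocount of 10 it was 18, against 27.9%. The negative members weakened without the libraries with liver transcripts, to r = -0.66 (Ugp2), -0.50 (Gbe1), -0.47 (Ppp1r3a) and -0.42 (Pdhb). The 14 positive members had r from 0.72 (Gys1) to 0.93 (Pfkm) there.

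In values, Aldoa had 373879, 491331 and 471788 normalized counts in MHE, 501659, 477905 and 588301 in MHS, 520354, 391187 and 423550 in PHE, 326745, 433233 and 519837 in PHS and 532146, 542262 and 443166 in NCS. It was highest in MHS replicate 3 and NCS replicate 2, the libraries with the fewest detected genes, and lowest in PHS replicate 1. Ppp1r3a had 5803, 3422 and 4217 in MHE, 4429.6, 3721 and 1861 in MHS, 6296, 6121 and 4428 in PHE, 6323, 5073 and 2569 in PHS and 4538, 1769 and 3883 in NCS. It was lowest in NCS replicate 2 and MHS replicate 3 and highest in PHS replicate 1, but also high in PHE replicate 1, where Aldoa was above its median. Ugp2 had 10101, 6806 and 6659 in MHE, 6953, 6943 and 3575 in MHS and 10517, 8642 and 4693 in PHS, with its lowest value of all in MHS replicate 3 and its highest in PHS replicate 1. Over all libraries glycogen genes stood on both sides, Pygm, Phkg1, Gys1 and Stbd1 with Aldoa, and Ugp2, Gbe1 and Ppp1r3a against it. The annotated exons of the 14 positive members had a median length of 3325 bases (840 to 6509). Those of the 4 negative members had 4606 bases (3069 to 6965) and those of the 12 other members 3875.5 bases (1570 to 8532). These ranges overlapped. The part of RNA quality, of depth and of the number of detected genes in this pattern was not tested.

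**Figure D5:**
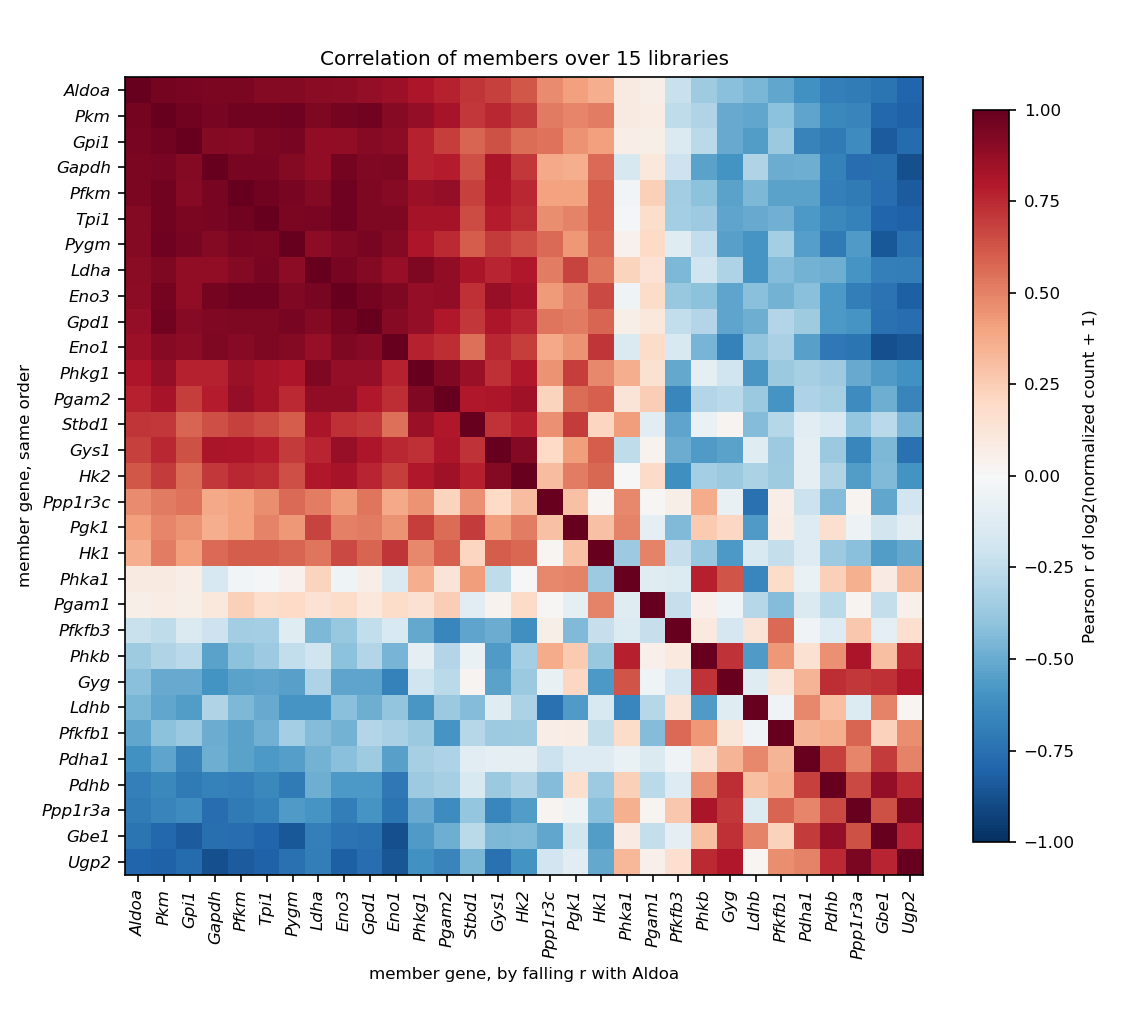
Pearson's r between each pair of members over 15 libraries, on log2(normalized count + 1), with members in order of falling r with Aldoa (red positive, blue negative). The red block runs from Aldoa to Hk2, and the blue corner joins it to Pdhb, Ppp1r3a, Gbe1 and Ugp2, the last with r = -0.79 to Aldoa.

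Ratios between isozymes within a library do not depend on scaling between libraries. The log2 ratio of Pgam2 to Pgam1 was 8.77, 10.10 and 9.42 in MHE, 9.91, 9.69 and 10.41 in MHS, 9.65, 9.72 and 9.77 in PHE, 9.39, 9.92 and 9.86 in PHS and 10.36, 10.22 and 10.14 in NCS. All MHE, PHE and PHS libraries lay below all NCS libraries, and the mean minus that of NCS was -0.81 for MHE, -0.53 for PHE and -0.52 for PHS. Leaving out 1 library moved the MHE value between -1.14 and -0.48, the latter without MHE replicate 1. Each comparison of all libraries gave an exact two-sided permutation p of 0.1, the smallest that 3 against 3 libraries allow. Any 2 groups without overlap give this p, and 24 such comparisons were made, so these separations are not set apart from chance. The 3 comparisons share the NCS libraries and rest on Pgam1. That gene has only 22.4 to 42 normalized counts, and 33.9% of its windows occur in another gene. The ratios Hk2 to Hk1, Eno3 to Eno1 and Ldha to Ldhb overlapped between groups in all 18 comparisons. The ratio of Ldha to Ldhb had the widest range over libraries, 2.82 to 4.98 log2 units, with PHE replicate 1 and NCS replicate 1 at the top.

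Promoter motifs were counted on both strands in 250-base windows before RefSeq start sites, found for 30 of 31 members. CAGCTG stood in 10 of 45 member windows (22.2%), against 13% of all 32851 windows. CACGTG stood in 4 (8.89%), against 6.02%, and ACGTG, which every CACGTG contains, in 15 (33.3%), against 16.6%. The windows with ACGTG belong to 12 members. Windows of a gene can overlap and count the same site again, as in Aldoa. The MEF2 consensus stood in 3 (6.67%), those of Pgam2, Pfkfb1 and Ppp1r3a, against 2.92%. A match says only that these letters are there.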

How the data were processed

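Per the labels' protocols, total RNA depleted of ribosomal RNA was sequenced on a stranded kit as 100-base single-end reads. The submitters' processing notes name STAR 2.5.2b, featureCounts 1.5.2, DESeq2 1.11.8 and build mm10. The deposited values are a signal, gene counts that the authors divided by 1 size factor per library. This was deduced from the values, which were whole multiples of 1 step per library in 100% of cases (tolerance 0.001 of a read). It is called normalized count here. The steps gave recovered reads, 18457663 to 26981745 per library.

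Symbols, coordinates and exons came from GENCODE M21 (GRCm38), which matched 50376 of 50686 identifiers, and promoters from RefSeq (GRCm38.p6). Groups came from the group label, and replicate numbers only name libraries. Chi-square values of 18.0 to 87.3 per degree of freedom separated the libraries of a group, so all were kept as separate replicates. The main test was limma 3.58.1 (R 4.3.3; lmFit, contrasts.fit, eBayes with trend) on log2(normalized count + 1) over all 15 libraries together and the 13499 genes whose mean reached 10, with Benjamini-Hochberg adjustment over these genes within a comparison. This scale understates differences of low genes. Correlations used 100000 permutations of libraries. The fit and the correlations were run on simulated data only to check the code, with set fold changes larger than any difference of a member. The members, gene lists and anchors were chosen with earlier results of these data known. Differences were printed, per comparison, for up to 5 members with an unadjusted p below 0.05, or otherwise the 2 members with the smallest p, and for the other pathway gene with the smallest p; members without overlap were named beside these. Alternatives were pseudocounts of 0.5 and 10, minimum means of 1 and 50, TMM scaling, edgeR 4.0.16 and DESeq2 1.42.0 on recovered reads, a covariate (Myh7, or the leading part of the code in the title), and leaving out each library or the 4 libraries with liver transcripts. Those on Aldoa, on the 2 libraries with the fewest detected genes and on the members without overlap were added after seeing the data.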

Additional observations from a re-analysis of the deposited data

How the results depend on the processing

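No member passed in any comparison under any alternative run, leave-outs included. None of the 29 differences of members recomputed, those with the smallest p and those without overlap, changed sign. All 29 were chosen from these same data, and leaving out libraries cannot reverse a difference between groups without overlap. Their unchanged sign therefore says little. The median log2 difference of members between PHS and NCS, -0.22, was -0.071 without the 4 libraries with liver transcripts, -0.0085 with the title code as a covariate and -0.303 to -0.074 when 1 library was left out; the ends were NCS replicates 3 and 1, and without PHS replicate 1 it was -0.084. The other medians ran, with 1 library left out, from -0.239 to -0.125 between MHE and MHS, -0.329 to -0.120 between MHE and NCS, -0.282 to -0.055 between PHE and NCS, -0.105 to 0.082 between MHS and NCS and -0.043 to 0.064 between PHE and PHS. The median of the difference between both exercise effects, -0.24, was -0.101 with the title code. That covariate could not be used for MHS or MHE against NCS, whose difference it cannot estimate. All 3 MHS libraries carry 1 leading code, shared by MHE replicate 3 alone of the MHE libraries, so in that fit MHE against MHS rests on this 1 MHE library. PHE against PHS rests there on PHE replicate 2 alone of the PHE libraries. No PHS library shares a leading code with an NCS library, so that fit joins PHS to NCS only through PHE. Members correlated with Myh7, 2 as reported, numbered 1 without the liver libraries, 1 without the 2 libraries with the fewest detected genes and 0 after centring on group means, beside 33, 50 and 0 of all genes, with r of Ppp1r3c at -0.82 (adjusted p = 0.133), -0.83 (adjusted p = 0.0635) and -0.78 (adjusted p = 0.444), and r of Ldhb at 0.96 (adjusted p = 0.118) after centring; the cause was not tested. Members correlated with Aldoa, 18 as reported, numbered 9 without the liver libraries, beside 409 of all genes, against 3721 as reported. Over all genes, limma called 0 in every comparison; DESeq2 called 60 between MHE and MHS, 18 between MHS and NCS, 65 between PHE and NCS and 1 between PHE and PHS, the title code fit 16 between MHE and MHS and 11 between PHE and PHS, and limma without MHS replicate 1 called 109 between MHE and MHS. A fit that leaves a group with 1 library assumes that it varies like the other groups. No paired analysis was possible because the replicate numbers follow accession order and link no animals.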
